A study of Homo sapiens with 12 samples.

Results

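The repressive histone mark H3K27me3 was compared gene body by gene body between METS, a derivative of the human colorectal cancer cell line DLD1, and DLD1 itself. DLD1 is the parental line and is labelled epithelial. METS was grown out of a xenograft lung metastasis and carries the same epithelial label. The derivatives SA (from colonies in soft agar) and SPH (from colonospheres) are labelled mesenchymal, and their values are given beside the comparison. All 4 lines were cultured with fetal bovine serum in medium of the McCoy's 5A type, and none is labelled as treated. Whether a derivative is 1 clone or a pool is not given in the sources used here. Each line has 1 library per mark, so no test was possible, and every interval below covers counting error only.

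The deposited H3K27me3 table has 50000 rows on chromosomes 1 to 19, of which 49993 are distinct, and its last line states that 7773 further rows were skipped. The rows are gene bodies: the one at chromosome 5, 52083730 to 52255040 is the span of ITGA1, and the one at chromosome 13, 66876967 to 67804468 is that of PCDH9 (hg19, as are all positions of rows below). The 31374 distinct rows of 1 kb or more were kept, and 18741 of them could be given a gene symbol. Among the rows with a symbol, 13470 were protein-coding and 3441 were long non-coding RNA (lncRNA) genes. The series as a whole holds 244278 rows over 3 marks. Rows overlap where genes do, and a host gene's count includes that of a gene within it: all 17613 nested rows had no more METS counts than the row around them.

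H3K27me3 is written by Polycomb repressive complex 2 through its catalytic subunit EZH2 or EZH1, and it is removed by the demethylases KDM6A and KDM6B. It lies in broad domains over silent developmental and tissue-specific genes, often starting from CpG-rich promoters, and the CBX proteins of Polycomb repressive complex 1 bind it. Genes transcribed in a cell usually carry little of it, with H3K4me3 at their start and H3K79 methylation, the product of DOT1L, along the first part of their body. In colorectal cancer, Polycomb marking is known to overlap with genes that regulate differentiation, adhesion and Wnt signalling.

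The promoters of 6 genes described below are printed first because gene bodies that differed lay behind both CpG-rich and CpG-poor starts. Each is the 250 bases before the start site, 5′ to 3′ on the gene's strand, from RefSeq (GRCh38.p14), with each CG dinucleotide in capitals. CG reads the same on both strands. Across 35116 RefSeq promoters the median was 11 CG, with quartiles of 3 and 23, and 93.9% held at least 1.
ITGA1: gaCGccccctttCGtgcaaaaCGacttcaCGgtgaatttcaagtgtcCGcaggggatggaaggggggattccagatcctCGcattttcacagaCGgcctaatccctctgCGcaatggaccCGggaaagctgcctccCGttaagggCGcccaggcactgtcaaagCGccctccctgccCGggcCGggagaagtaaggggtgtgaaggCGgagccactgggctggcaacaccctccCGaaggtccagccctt
BCL11A: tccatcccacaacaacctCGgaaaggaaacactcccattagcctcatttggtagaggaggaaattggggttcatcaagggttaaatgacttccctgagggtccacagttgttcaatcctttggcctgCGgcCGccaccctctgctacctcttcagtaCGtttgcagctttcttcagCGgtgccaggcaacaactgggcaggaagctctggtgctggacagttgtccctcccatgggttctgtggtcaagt
CALCRL: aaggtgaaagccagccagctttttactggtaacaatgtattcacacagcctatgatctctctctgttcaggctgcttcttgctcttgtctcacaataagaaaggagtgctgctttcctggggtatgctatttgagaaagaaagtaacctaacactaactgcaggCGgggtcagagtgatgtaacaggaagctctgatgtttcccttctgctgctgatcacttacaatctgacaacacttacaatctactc
PCDH9: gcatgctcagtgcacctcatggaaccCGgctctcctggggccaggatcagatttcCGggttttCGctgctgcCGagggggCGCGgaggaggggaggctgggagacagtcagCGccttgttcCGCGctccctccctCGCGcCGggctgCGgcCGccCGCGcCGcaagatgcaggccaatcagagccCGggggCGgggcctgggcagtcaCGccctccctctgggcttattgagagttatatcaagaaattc
PRKD1: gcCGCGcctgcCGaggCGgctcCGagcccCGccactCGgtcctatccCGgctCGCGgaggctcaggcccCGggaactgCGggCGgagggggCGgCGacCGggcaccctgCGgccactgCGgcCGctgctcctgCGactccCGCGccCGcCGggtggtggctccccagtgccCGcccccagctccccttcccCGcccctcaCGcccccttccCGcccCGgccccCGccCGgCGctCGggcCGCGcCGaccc
SEMA5A: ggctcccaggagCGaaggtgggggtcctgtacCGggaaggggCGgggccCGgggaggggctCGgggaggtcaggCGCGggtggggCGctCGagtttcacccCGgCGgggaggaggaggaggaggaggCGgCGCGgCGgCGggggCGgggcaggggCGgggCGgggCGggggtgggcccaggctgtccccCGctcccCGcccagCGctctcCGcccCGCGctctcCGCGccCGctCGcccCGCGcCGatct
The first 3 belong to genes with less H3K27me3 in METS and the last 3 to genes with more. PRKD1 had 36 CG and SEMA5A 33, and 4.85% and 8.15% of all promoters had at least as many. PCDH9 had 20, ITGA1 16, BCL11A 5 and CALCRL 1. The CG counts of these 6 split by direction, but those of the other named genes overlapped. Lower in METS were INSIG2 with 25 CG, UNC5C with 17 and COL24A1 with 16. Higher in METS were TNC with 12, DPPA4 with 3 and C3orf85 with 2. Over the 48 named genes with a promoter entry, CG counts ran from 0 at SI, LINC02411 and LOC124901037 to 36 at PRKD1.

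H3K27me3 totals over the distinct rows were 15605283 counts (DLD1), 18891602 (SA), 20409454 (SPH) and 20285444 (METS). Counts were scaled to CPM, which divides a count by the column total and sets every total to the same size, and levels are given as CPM per kb of row. The row with the most counts, chromosome 15, 56922379 to 57210769, has no symbol and held 3.74% of all DLD1 counts against 2.35% in METS, so it enters every CPM. Of markers that define the labelled types, the epithelial cadherin gene CDH1 had 626 H3K4me3 and 6445 H3K79me3 counts in DLD1, and 701 and 4460 in METS. VIL1, the villin gene of the intestinal brush border, had 3 and 14 H3K4me3 counts and no H3K79me3 counts in either line. The mesenchymal genes VIM, CDH2 and ZEB1 had no H3K79me3 counts in either line as well, with H3K4me3 counts in DLD1 and METS of 234 and 281 at VIM, 25 and 13 at CDH2, and 483 and 522 at ZEB1.

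Most gene bodies lay within 1.5-fold in METS and DLD1. With 0.5 CPM added to both values, which draws the ratios of low rows toward 0, the median log2 ratio of METS to DLD1 was -0.02 (quartiles -0.22 and 0.16), 46.6% of rows had a ratio above 0, and 90.2% lay within 1.5-fold. With 0.1 CPM added, 82.8% lay within 1.5-fold, and with 2 CPM 96.0%. At 0.5 CPM, 199 rows were at least 2-fold higher in METS (0.634%) and 291 at least 2-fold lower (0.928%), together 1.56% of 31374. The counts moved with the added value: with 0.1 CPM they were 605 and 933, and with 2 CPM 73 and 125. The higher rows bore 39 protein-coding and 39 lncRNA symbols, and the lower rows 103 and 36. Rows without a symbol (98 higher, 137 lower) were not named below, and the lowest log2 ratio of all (-2.97) was at such a row. This row, chromosome 17, 79369275 to 79375658, had 504 counts (DLD1), 251 (SA), 26 (SPH) and 75 (METS). Its H3K79me3 was 694 counts in DLD1 and 1898 in METS. Median levels of the higher rows were 0.320 CPM per kb (DLD1), 0.449 (SA), 0.634 (SPH) and 0.868 (METS). Median levels of the lower rows were 0.812, 0.515, 0.431 and 0.298 in the same order. The rows were chosen on DLD1 and METS, and the comparisons of the derivatives share the DLD1 library. None of the rows with the 5 highest levels of either line was past 2-fold. They included the olfactory receptor gene OR8A1 (9.79 CPM per kb in DLD1, 10.1 in METS) and the LIM-domain gene CRIP2 (9.66 and 5.98).

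**Figure D1:**
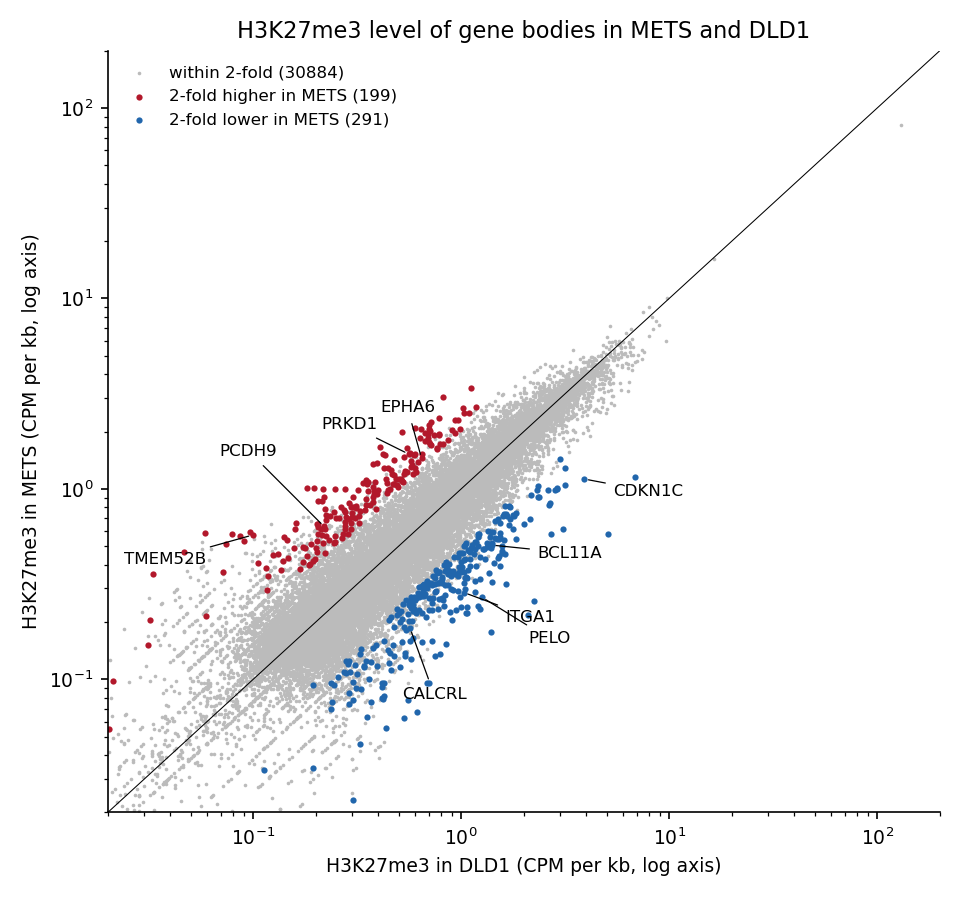
H3K27me3 level of each kept row in DLD1 (horizontal) and METS (vertical), in CPM per kb on log axes, with rows 2-fold higher (red) or lower (blue) in METS after 0.5 CPM was added. The 707 rows under 0.02 CPM per kb in a line are not drawn, and the coloured rows lie along the edges of a cloud centred on the line of equality.

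The gene of the collagen-binding integrin subunit ITGA1 had the lowest ratio of the adhesion genes named here. Its 171 kb body had 1.03 CPM per kb (DLD1), 0.708 (SA), 0.632 (SPH) and 0.285 (METS). The METS level, from 992 counts against 2759 in DLD1, was 3.62-fold lower (95% interval 3.36 to 3.89). SA and SPH lay between, and METS was lowest of the 4. PELO, the ribosome-rescue factor gene that lies within the ITGA1 body (chromosome 5, 52083774 to 52099880), had 317 counts (DLD1), 272 (SA), 284 (SPH) and 88 (METS). It was 4.68-fold lower (3.69 to 6.0), the lowest ratio among genes that met the naming rule. Without the PELO span, ITGA1 was still 3.51-fold lower (3.25 to 3.79). PELO-AS1 (chr5:51971027-52083860), the antisense lncRNA on the other side of the shared start, was 2.79-fold lower (2.55 to 3.06). The difference had ended by the next integrin gene: the log2 ratio was -0.76 at ITGA2-AS1 and -0.07 at ITGA2, the other collagen-binding integrin alpha subunit of the locus. Other marks over ITGA1 were 1.24-fold higher in METS for H3K4me3 (1.14 to 1.35) and 1.54-fold higher for H3K79me3 (1.36 to 1.76). Of the H3K4me3 counts, 899 of 912 in DLD1 and 1215 of 1230 in METS were also counted at PELO. So were all of the 414 and 547 H3K79me3 counts, and neither mark can be assigned to ITGA1 alone.

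Of 24 integrin genes with a row, ITGA1 was the only one past 2-fold (4.17% of the list lower, against 0.928% of all rows), and the other 23 lay between -0.49 (ITGB4) and 0.52 (ITGAL). The list's median was -0.06, against -0.02 over all rows. Among 38 collagen, laminin and matrix genes, 1 was higher and 1 lower (2.63% each way, against 0.634% and 0.928% of all rows), and the list's median was 0.01. TNC (chr9:117782806-117880536), which encodes the matrix protein tenascin C, had 0.344 CPM per kb (DLD1), 0.323 (SA), 0.302 (SPH) and 0.776 (METS). That was 2.25-fold higher in METS than in DLD1 (2.04 to 2.49), with METS alone standing high. COL24A1 (chr1:86194916-86622626), a fibrillar collagen gene of 428 kb, had 0.877, 0.734, 0.424 and 0.405 CPM per kb in DLD1, SA, SPH and METS, 2.16-fold lower (2.08 to 2.26). H3K4me3 over COL24A1 was 0 counts in DLD1 and 24 in METS.

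DSC2 (chr18:28645940-28682378) encodes the desmosomal cadherin desmocollin 2. DSC2 was the single member of 31 epithelial junction genes past 2-fold (3.23% lower, against 0.928% of all rows). It had 0.675 CPM per kb (DLD1), 0.494 (SA), 0.571 (SPH) and 0.214 (METS), 3.16-fold lower (2.62 to 3.83). Its neighbours DSC3 and DSC1 had log2 ratios of -0.66 and -0.69, and DSG2, further along the desmosomal cadherin cluster, -0.04. H3K4me3 at DSC2 differed little (291 and 323 counts). Of 25 mesenchymal genes, 1 was past 2-fold (4% lower, against 0.928% of all rows). It was SNAI2, a repressor of epithelial cadherin, with few counts (68 in DLD1, 31 in METS, log2 ratio -1.26). The related repressor gene ZEB1 (chr10:31607424-31818742) had 0.871 CPM per kb (DLD1), 0.529 (SA), 0.421 (SPH) and 0.452 (METS), 1.93-fold lower (1.82 to 2.04) and so short of 2-fold. The adhesion receptor gene CD44 was 1.66-fold higher (1.5 to 1.84).

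Among the other genes with the lowest ratios were those of receptors, secreted factors and membrane proteins. TNFRSF11B (chr8:119935796-119964439), which encodes osteoprotegerin, the decoy receptor for RANKL, had 443 counts (DLD1), 237 (SA), 304 (SPH) and 158 (METS), 3.64-fold lower in CPM (3.03 to 4.40). TSPAN12 (chr7:120427376-120498456), a tetraspanin of Norrin and FZD4 signalling, had 0.827, 0.433, 0.283 and 0.241 CPM per kb in DLD1, SA, SPH and METS, 3.43-fold lower (3.02 to 3.89). CALCRL (chr2:188207856-188313187), the receptor for adrenomedullin and CGRP, had 0.568, 0.258, 0.234 and 0.186, 3.05-fold lower (2.71 to 3.44). At both genes DLD1 stood alone as the high line and METS was the lowest. KCND2, the potassium channel gene beside TSPAN12, had a log2 ratio of 0.02.

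INSIG2 (chr2:118846028-118868573), which encodes an endoplasmic reticulum protein that holds back cholesterol synthesis, had a different order. It had 1.52 CPM per kb (DLD1), 2.59 (SA), 0.415 (SPH) and 0.444 (METS), 3.43-fold lower in METS (2.91 to 4.05). SERPINI1 (chr3:167453031-167543356), the neuroserpin gene, had 0.807 CPM per kb in DLD1 against 0.379, 0.262 and 0.267 in SA, SPH and METS, 3.03-fold lower in METS (2.72 to 3.37). PDCD10, its neighbour on 1 side, had a log2 ratio of 0.28, and WDR49 beyond that -0.66. On the other side LRRC77P was lower as well (-1.35). CLEC2B (chr12:10005583-10022735), a lectin-like receptor gene, was 2.61-fold lower (2.20 to 3.10), with 411 counts in DLD1 and 205 in METS. The remaining genes that the rule named at the low end were ERMN, whose product stabilises myelin, and the lncRNA genes PEX5L-AS2, LOC124901037, LINC02411 and LINC00381. They were 3.12-fold to 3.54-fold lower, each with DLD1 as the highest of the 4 lines.

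BCL11A (chr2:60678302-60780702), a zinc-finger repressor known for silencing fetal haemoglobin, had 1.40 CPM per kb (DLD1), 0.714 (SA), 0.95 (SPH) and 0.507 (METS), 2.77-fold lower (2.57 to 2.98). H3K79me3 over BCL11A was 99 counts in DLD1 and 171 in METS, 2.02-fold higher in CPM (1.57 to 2.61), and H3K4me3 was 1.18-fold higher. CDKN1C (chr11:2904443-2907111), the imprinted gene of the cyclin-dependent kinase inhibitor p57, had 3.91 CPM per kb (DLD1), 4.22 (SA), 2.86 (SPH) and 1.13 (METS), 3.47-fold lower (2.57 to 4.74). The difference at CDKN1C was not shared by KCNQ1OT1, the imprinted lncRNA of the same domain (log2 ratio -0.05), or by IGF2 (0.04). ALX1 (chr12:85673885-85695562), a homeobox gene, had 190 counts (DLD1), 387 (SA), 597 (SPH) and 89 (METS), 2.78-fold lower in METS than in DLD1 (2.15 to 3.61). It was the 1 member past 2-fold of 85 developmental transcription factor genes outside the HOX clusters (1.18% lower, against 0.928% of all rows), whose median was -0.04. None of 29 HOX genes passed, where 1.56% of all rows did. Their median was -0.16, and HOXA3 was lowest (1.94-fold, 1.63 to 2.31). Rows without a symbol could not be on the list. In the HOXA cluster (chr7:27168588-27195542, over HOXA3, HOXA4, HOXA5 and HOXA7), 4 of 9 rows were 2-fold lower, against 0.928% of all rows. These 4 had no symbol, and rows there overlap. One of them (chr7:27169596-27195542) had 192 counts in DLD1 and 99 in METS.

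Of 12 genes for Polycomb subunits and H3K27 enzymes, none passed 2-fold, where 1.56% of all rows did. BMI1 (chr10:22610140-22620413), a subunit of Polycomb repressive complex 1, had 296 counts (DLD1), 392 (SA), 522 (SPH) and 219 (METS), 1.76-fold lower (1.47 to 2.10). EZH2 had a log2 ratio of -0.05 and SUZ12, another subunit of complex 2, 0.32. None of 21 housekeeping genes passed, against the same 1.56% of all rows, and their median level was 0.169 CPM per kb in DLD1 and 0.160 in METS.

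**Figure D2:**
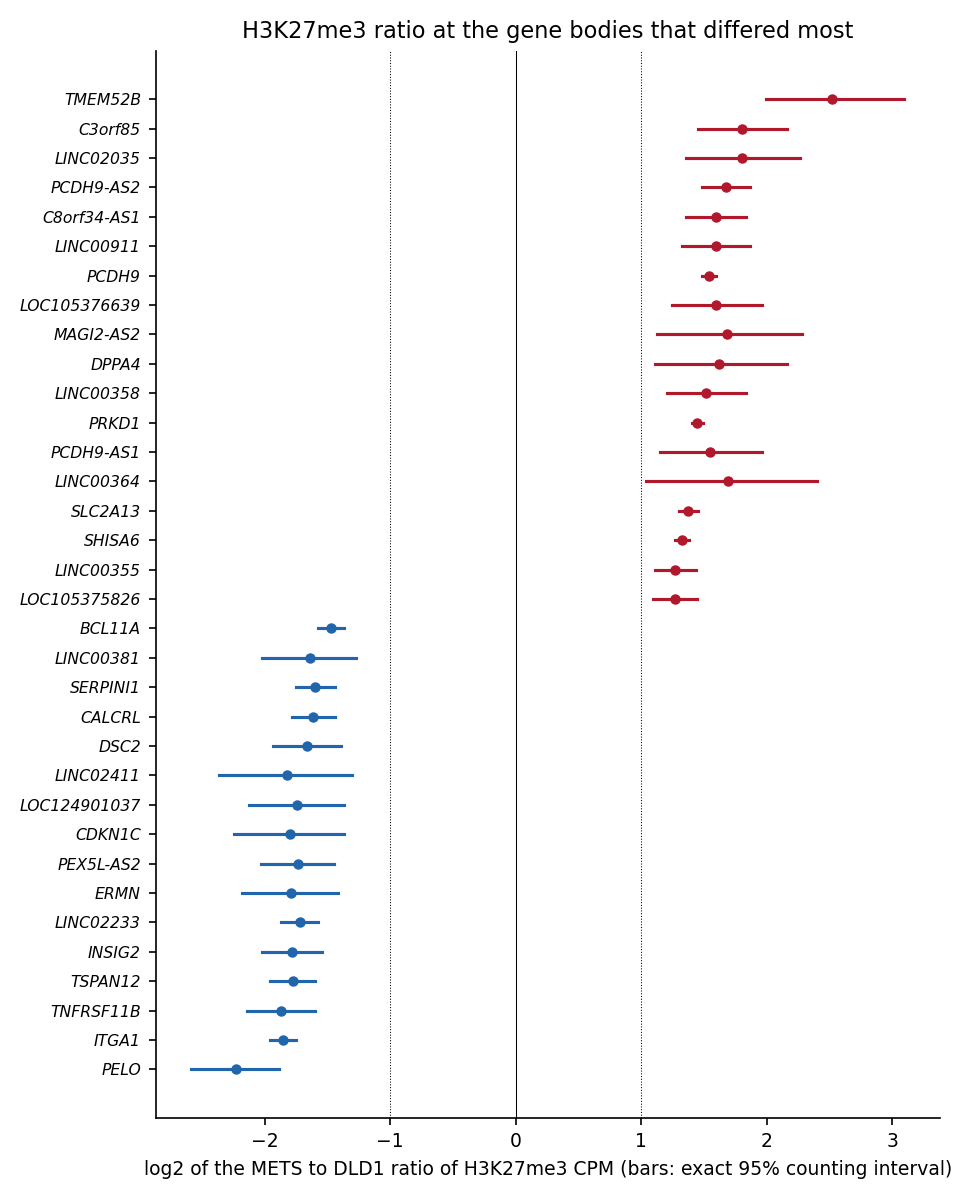
Log2 of the METS to DLD1 ratio of H3K27me3 CPM (horizontal, no value added) for the genes named by the rule for the lowest and highest ratios, ordered by the ratio with 0.5 CPM added. Rows without a symbol are not drawn. Points are 1 library per line, bars are exact 95% counting intervals, and dotted lines mark 2-fold: PELO (4.68-fold lower) and TMEM52B (5.76-fold higher) lie at the ends.

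Among the genes with more H3K27me3 in METS was PCDH9. PCDH9, a protocadherin gene of 928 kb, had 0.219 CPM per kb (DLD1), 0.247 (SA), 0.340 (SPH) and 0.636 (METS). From 11964 counts against 3167, it was 2.91-fold higher (2.79 to 3.02). The lncRNA genes PCDH9-AS2 and PCDH9-AS1 within it were 3.20-fold (2.81 to 3.65) and 2.92-fold (2.22 to 3.90) higher, and their counts are part of its own. FLRT2 (chr14:85996488-86095034), an adhesion ligand of latrophilins and UNC5 receptors, had a smaller difference, 2.23-fold higher (2.01 to 2.47), with 0.323 CPM per kb (DLD1), 0.259 (SA), 0.388 (SPH) and 0.720 (METS). Its neighbour LINC00911 was 3.02-fold higher (2.51 to 3.66), with METS alone high (0.352, 0.242, 0.294 and 1.07 CPM per kb).

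Of 58 neuronal adhesion and synapse genes, PCDH9 and FLRT2 were past 2-fold higher and CADM1 lower, which is 3.45% and 1.72% against 0.634% and 0.928% of all rows. Of the 58, 41 had a log2 ratio above 0, and the median was 0.18, where 46.6% of all rows were above 0 and the median was -0.02. The list was chosen with earlier results known and holds PCDH9, which the rule supplied, so this is no independent result. Row length was not matched between the list and all rows. CADM1 (chr11:115039938-115375675), a synaptic and epithelial adhesion molecule gene, had 0.750 CPM per kb (DLD1), 0.488 (SA), 0.572 (SPH) and 0.339 (METS), 2.21-fold lower (2.10 to 2.33). Over CADM1, H3K79me3 was 62 counts in DLD1 and 301 in METS, 5.68-fold higher in CPM (4.31 to 7.59). Just short of 2-fold higher lay LRRTM4 (log2 ratio 0.96), PCDH15 (0.88) and CADM2 (0.84).

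Among 42 axon guidance genes, 2 were higher (4.76%, against 0.634% of all rows) and 1 lower (2.38%, against 0.928%), and the median was -0.04. EPHA6 (chr3:96533425-97471304), an ephrin receptor gene, had 9440 counts (DLD1), 14608 (SA), 15291 (SPH) and 27543 (METS), 2.24-fold higher in CPM (2.19 to 2.30). The edge was sharp on 1 side, with the next named gene, ARL6, at -0.53. SEMA5A (chr5:9035138-9546187), a semaphorin gene of 511 kb, had 0.246 CPM per kb (DLD1), 0.224 (SA), 0.272 (SPH) and 0.527 (METS), 2.14-fold higher (2.03 to 2.26). H3K79me3 over SEMA5A was 552 counts in DLD1 and 171 in METS, 2.76-fold lower (2.32 to 3.30). UNC5C (chr4:96083655-96470357), a netrin receptor gene, was 2.28-fold lower (2.16 to 2.41), with 0.598 CPM per kb (DLD1), 0.520 (SA), 0.370 (SPH) and 0.262 (METS). Of 55 ion channel and glutamate receptor genes, none was past 2-fold higher, though the potassium channel gene KCNJ3 reached 1.93-fold (1.81 to 2.05). KCNC2 (chr12:75433857-75603648), another potassium channel gene, was 2.6-fold lower (2.41 to 2.81), and GRIA2 (chr4:158125334-158287227), an AMPA receptor subunit gene, 2.10-fold lower (1.95 to 2.26). These were the 2 lower members of the 55 (3.64%, against 0.928% of all rows).

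Among the 325 rows of 500 kb or more, 4 were 2-fold higher and 4 lower (1.23% each way, against 0.634% and 0.928% of all rows). Their median log2 ratio was 0.04, against -0.02 over all rows. Among the 1319 rows of 200 to 500 kb, 8 were higher (0.607%) and 16 lower (1.21%). The 615 kb body of PRKD1 (chr14:30045687-30661104), the protein kinase D1 gene, had 0.559 CPM per kb (DLD1), 0.903 (SA), 0.464 (SPH) and 1.52 (METS), 2.73-fold higher in METS (2.64 to 2.81). SLC2A13 (chr12:40148823-40499891), an inositol transporter gene, had 0.313, 0.413, 0.494 and 0.814 CPM per kb in DLD1, SA, SPH and METS, 2.6-fold higher (2.46 to 2.74). H3K4me3 at SLC2A13 was higher as well, with 63 counts in DLD1 and 173 in METS (2.53-fold). LRRK2, the kinase gene beyond it, had a log2 ratio of 1.01, and REDIC1, which overlaps it, was 2.56-fold higher (2.42 to 2.70). SHISA6 (chr17:11144580-11467380), which encodes an AMPA receptor auxiliary protein, was 2.51-fold higher (2.42 to 2.61), with 0.702, 0.851, 1.36 and 1.76 CPM per kb in the same order. The lncRNA genes LINC02035, C8orf34-AS1, LOC105376639, MAGI2-AS2, LINC00364 and LOC105375826 were 2.41-fold to 3.48-fold higher. LINC00364 reached a log2 ratio of only 0.98 with 2 CPM added.

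**Figure D3:**
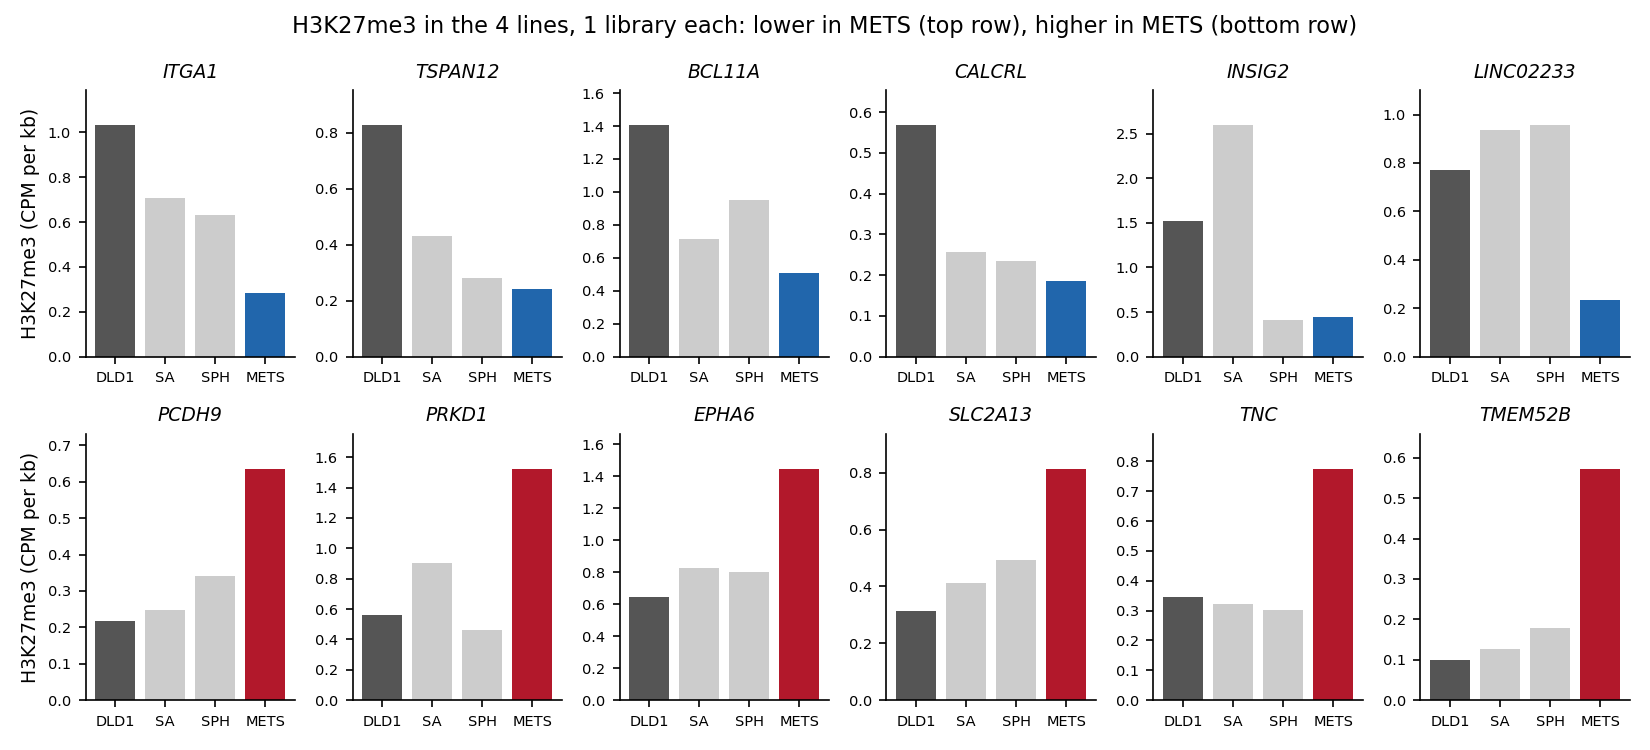
H3K27me3 level (CPM per kb, bars from 0, own scale in each panel) in DLD1, SA, SPH and METS, 1 library each, for 6 genes lower in METS (blue) and 6 higher (red). DLD1 is the highest bar at ITGA1, TSPAN12, BCL11A and CALCRL, SA or SPH is the highest at INSIG2 and LINC02233, and METS is the highest in every lower panel.

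RSPO3 (chr6:127439749-127518910), a secreted R-spondin that strengthens Wnt signalling, had 1.37 CPM per kb (DLD1), 0.762 (SA), 0.541 (SPH) and 0.561 (METS), 2.44-fold lower (2.25 to 2.65). The related gene RSPO2 was 1.55-fold higher (1.48 to 1.62). WNT5A (chr3:55499743-55523973), a ligand of beta-catenin-independent signalling, had 646 counts (DLD1), 722 (SA), 708 (SPH) and 397 (METS), 2.12-fold lower (1.86 to 2.40). RSPO3 and WNT5A were the 2 members past 2-fold of 48 Wnt pathway and crypt stem genes (median -0.08), both lower, which is 4.17% of the list against 0.928% of all rows. Among 28 intestinal genes (median 0.01), 1 was past 2-fold (3.57%, against 0.928% of all rows lower): SI (chr3:164696686-164796283), the sucrase-isomaltase gene of the brush border, was 2.31-fold lower (2.0 to 2.68). The mucin gene MUC13 was 1.51-fold higher (1.28 to 1.77).

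Across the 21 rows on the list of C-type lectin genes and neighbours of theirs, 2 overlapping rows were higher (9.52%, against 0.634% of all rows). On the same list 1 was lower (4.76%, against 0.928%), and the median was -0.16. The 2 higher rows are TMEM52B and OLR1, and the list was chosen with earlier results known, so its higher share is no independent result. TMEM52B (chr12:10323141-10344400), a membrane protein gene that is no lectin, had 33 counts (DLD1), 51 (SA), 78 (SPH) and 247 (METS), 5.76-fold higher in CPM (3.99 to 8.55), the highest ratio among genes that met the naming rule. OLR1 (chr12:10310902-10324737), the receptor for oxidised LDL whose row overlaps it, had 39, 34, 56 and 124 counts, 2.45-fold higher (1.69 to 3.60), but its log2 ratio was 0.85 with 2 CPM added. H3K79me3 over TMEM52B was 1546 counts in DLD1 and 288 in METS, 4.59-fold lower (4.05 to 5.22), and over OLR1 502 and 74. GABARAPL1, the next gene, had a log2 ratio of -0.21 and KLRD1 after it 0.75. On the other side every row from CLEC7A to CD69 had a ratio below 0, such as CLEC7A (-0.16), CLEC1A (-0.45) and CLEC12A (-0.86), with CLEC2B (-1.34), KLRF2 (-1.41) and a row without a symbol past 2-fold.

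Some rows that differed were neighbours. The next row downstream that did not overlap was also 2-fold higher for 44 of 199 higher rows (22.1%), where 0.634% of all rows were, and also 2-fold lower for 41 of 291 lower rows (14.1%), where 0.928% were. For none of them was the next row past 2-fold the opposite way. Rows nested in 1 host gene can be each other's next row, and overlapping rows can share a next row. These shares can therefore come in part from single gene bodies. Joined across gaps of up to 200 kb, the higher rows formed 135 stretches and the lower rows 210. The stretches described next were chosen after their values were seen.

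On chromosome 13 between 61 and 69 Mb, a gene-poor stretch around PCDH9, 12 of 26 rows were 2-fold higher, where 0.634% of all rows were. None was lower, and the median log2 ratio was 0.82. The 12 include PCDH9 and lncRNA rows within it whose counts are part of its own, so they are not 12 separate changes. The lncRNA genes LINC00358 and LINC00355 there were 2.86-fold (2.31 to 3.57) and 2.42-fold (2.16 to 2.71) higher. On chromosome 14 between 29 and 31 Mb, around PRKD1, 9 of 16 rows were higher, against the same 0.634% of all rows, and the median was 1.14. H3K4me3 regions of the chromosome 13 stretch held 20 counts in DLD1 and 100 in METS, and H3K79me3 regions 11 and 16. In the chromosome 14 stretch H3K4me3 held 4 counts in DLD1 and 1 in METS, and H3K79me3 none. With so few counts, more H3K27me3 and more copies of the DNA cannot be told apart in these stretches. Copy number was not tested at the other genes either, EPHA6, FLRT2, SHISA6 and SLC2A13 among them.

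On chromosome 3, a short stretch held 7 rows, of which 6 were higher, where 0.634% of all rows were. Among the 6 were C3orf85 (3.49-fold, 2.74 to 4.49), DPPA2 (log2 ratio 1.03) and DPPA4 (chr3:109044988-109056419). DPPA2 and DPPA4 encode a pair of nuclear proteins of early embryonic cells. DPPA4 had 40 counts (DLD1), 80 (SA), 117 (SPH) and 160 (METS), 3.08-fold higher (2.16 to 4.47). On chromosome 5, ADAMTS19 (a secreted metalloproteinase gene), MINAR2 and CHSY3 (a chondroitin synthase gene) were all 2-fold lower, with log2 ratios of -1.41, -1.50 and -1.34. On chromosome 4 between 156 and 163 Mb, 6 of 43 rows were lower, where 0.928% of all rows were, and none was higher. Of the 43, 34 had a log2 ratio below 0, and the median was -0.28. LINC02233 (chr4:160587655-160698936) in that stretch had 0.772 CPM per kb (DLD1), 0.938 (SA), 0.956 (SPH) and 0.234 (METS), 3.30-fold lower (2.98 to 3.65). The other marks were level over that stretch, with 508 CPM of H3K4me3 in DLD1 and 513 in METS, and 531 and 539 CPM of H3K79me3.

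**Figure D4:**
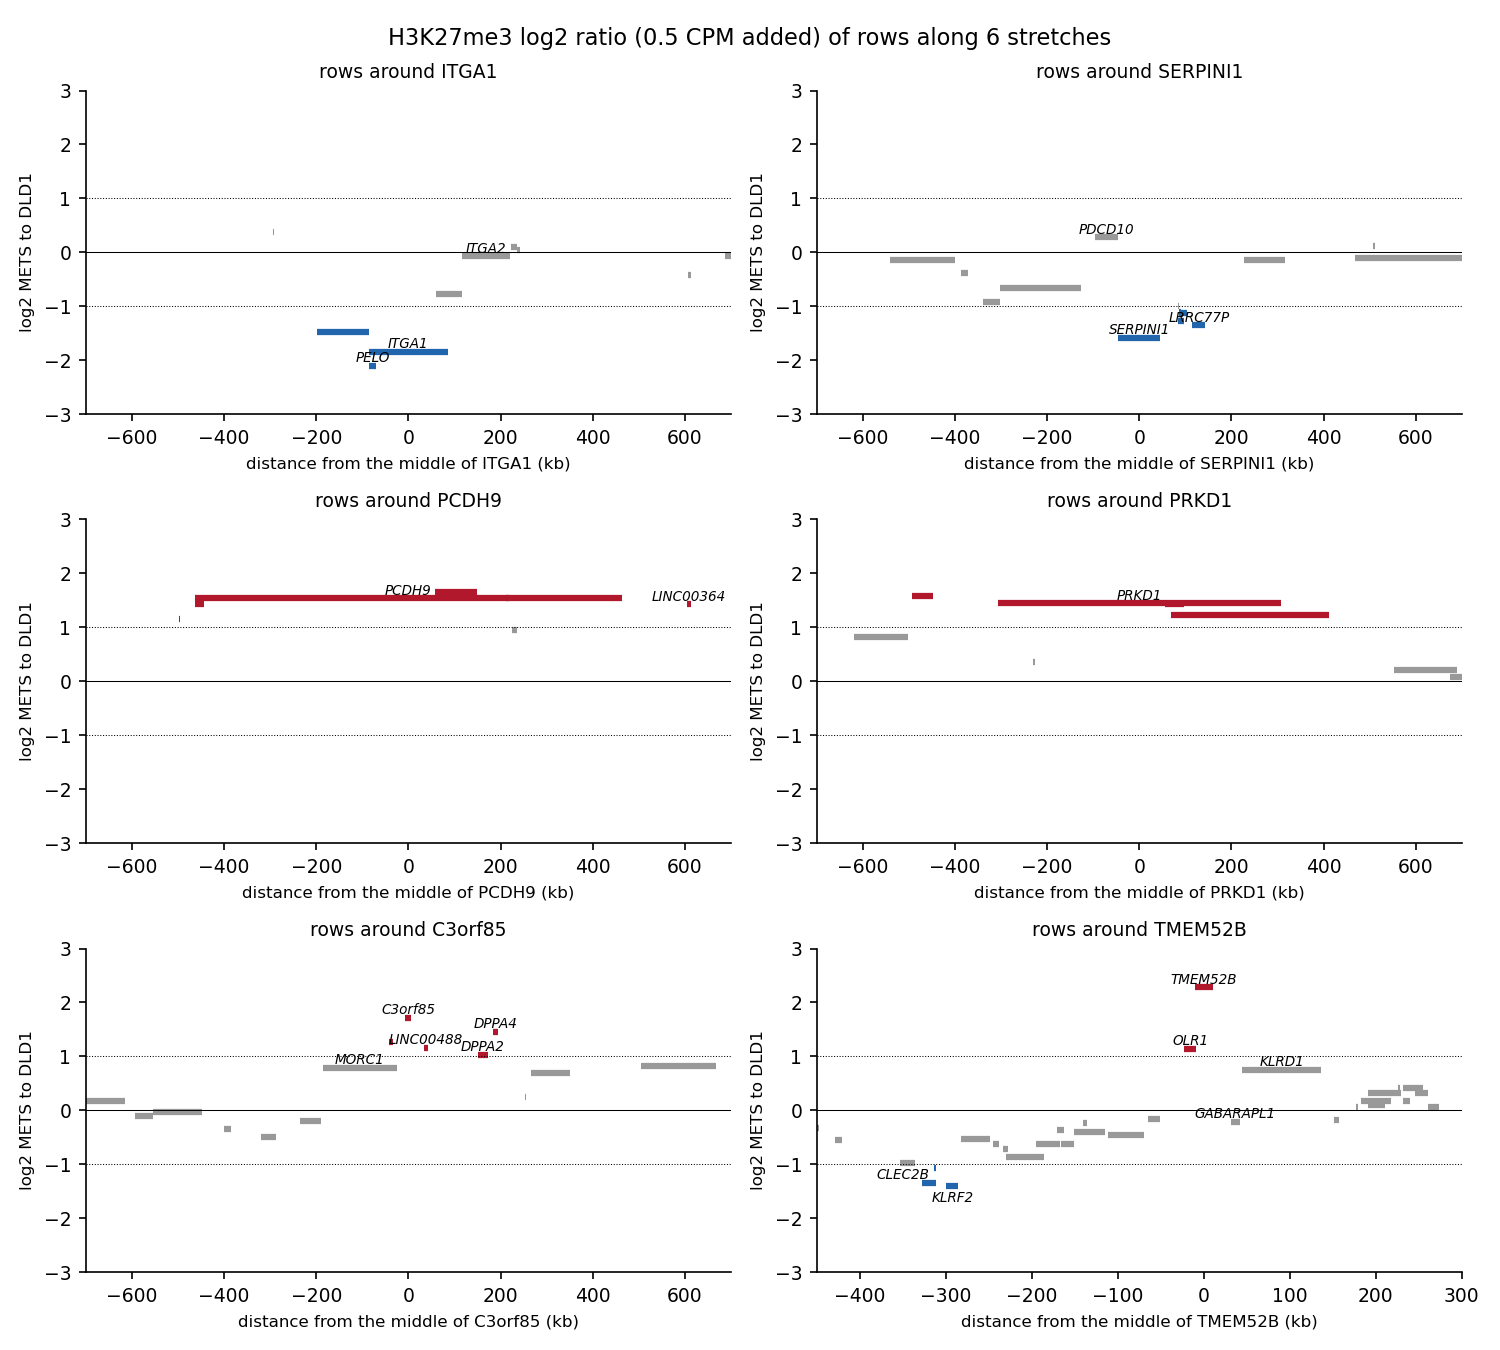
H3K27me3 log2 ratio of METS to DLD1 with 0.5 CPM added (vertical) for each row of 1 kb or more (bars at true width) against distance in kb from the middle of the named gene, red past 2-fold higher and blue past 2-fold lower. The lower stretch at ITGA1 ends before ITGA2 (-0.07), and the rows around PCDH9 and PRKD1 lie mostly above 1.

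Against all 3 other lines at once, 24 rows were 2-fold higher in METS (0.0765%) and 34 were 2-fold lower (0.108%). The examples given here were chosen after their values were seen, apart from those above. Besides TMEM52B, OLR1, TNC, LINC00911 and LINC02035, the higher rows held DUSP22, a phosphatase gene, with 0.904 CPM per kb (DLD1), 0.851 (SA), 0.924 (SPH) and 2.03 (METS). ADGRL4, an adhesion receptor gene of blood vessels, had 0.308, 0.272, 0.328 and 0.704. Besides ITGA1, PELO, PELO-AS1, DSC2, CDKN1C, ALX1, GRIA2, ERMN and LINC02233, the lower rows held transcription factor genes. TFAP2A had 239 counts (DLD1), 303 (SA), 357 (SPH) and 109 (METS), ETS1 had 2446, 4036, 3478 and 1516, and IKZF2 had 1417, 2133, 3519 and 725. GPC5, a heparan sulfate proteoglycan gene, had 10359, 25218, 34521 and 6080 counts, so SA and SPH lay above DLD1 and METS below it.

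H3K79me3, which was no part of the choice of rows, was compared over the rows that differed in H3K27me3, counted in the body and 2 kb on either side. Of the 291 lower rows, 66 had 20 or more H3K79me3 counts in both lines together. Their median H3K79me3 log2 ratio was 0.62, against 0.15 over all 11550 rows with as many counts, and 17 were 2-fold higher in METS and none lower. Some of these rows overlap and share H3K79me3 regions, such as ITGA1 and PELO. Joined where bodies with their 2 kb flanks overlap, the 66 rows formed 54 groups and the 17 formed 15. H3K27me3 counts of the 66 rows ran from 8 in DLD1 and 0 in METS to 5363 and 3078, so some rest on few counts. Several lay in 1 stretch, over which H3K79me3 was 1.95-fold higher on chromosome 8 (144655660 to 144815971) and 1.08-fold on chromosome 7 (27168588 to 27195542, in the HOXA cluster). Over all 11550 rows, 579 were 2-fold higher (5.01%) and 76 lower (0.658%). Of the 199 higher rows only 12 had 20 or more H3K79me3 counts, with a median of -0.17, none 2-fold higher and 3 lower: TMEM52B, OLR1 and SEMA5A. TMEM52B and OLR1 overlap and share H3K79me3 regions. MTSS1, an actin regulator gene that was picked after its values were seen, had H3K27me3 of 1595 counts in DLD1 and 941 in METS and H3K79me3 of 17 and 217. At TFAP2A, H3K79me3 was 197 and 526 counts, 3.12-fold higher (2.65 to 3.70). At INSIG2, H3K79me3 was 1.14-fold lower in METS (0.966 to 1.34), with 346 and 260 counts.

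**Figure D5:**
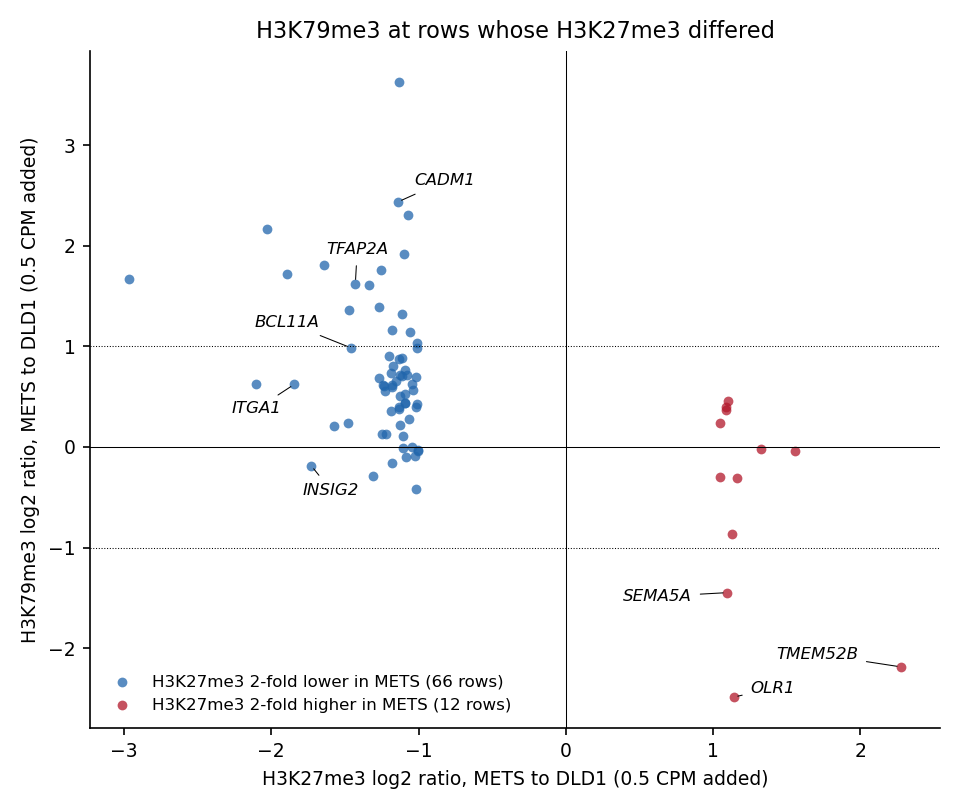
H3K79me3 log2 ratio of METS to DLD1 (vertical) against the H3K27me3 log2 ratio (horizontal), both with 0.5 CPM added, for rows past 2-fold in H3K27me3 with 20 or more H3K79me3 counts; each point is 1 row. Of the 66 lower rows (blue), 57 lie above 0, and TMEM52B, OLR1 and SEMA5A are the 3 of 12 higher rows (red) that lie under -1.

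H3K4me3 differed less at the same rows. The median log2 ratio was 0.06 over the 128 lower rows with 20 or more H3K4me3 counts, with 4 rows 2-fold higher and none lower, and -0.01 over all 15370 such rows, of which 151 (0.982%) were 2-fold higher and 84 (0.547%) lower. It was -0.21 over the 21 higher rows with as many counts, of which 1 was 2-fold higher and none lower. Any H3K4me3 region lay in or near 16.1% of the higher rows, 45.4% of the lower rows and 51.6% of the rows within 2-fold.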

How the data were processed

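The H3K27me3 tables of the 4 lines hold raw read counts per gene body, as deposited by the authors. They were counted on hg19 per the submitters' processing notes, while the aligner, the counting program and any input library are not given in the sources used here. The H3K4me3 and H3K79me3 tables hold deposited counts per short region and were summed over each gene body and 2 kb on either side.

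Repeated rows (7) and rows under 1 kb (18619) were dropped. CPM used column totals over the distinct rows. The 2-fold threshold used log2 of CPM plus 0.5, and folds of named genes used CPM without an added value, with exact Clopper-Pearson 95% intervals conditional on the summed count. These intervals cover counting error only. PCR copies are not marked in the counts, and any among them would make the intervals too narrow. No p-value was computed, since no line has a second library of a mark.

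No hg19 annotation was used. Symbols came from RefSeq (GRCh38.p14), whose coordinates are not printed. Rows and genes of equal length with the same local shift between builds, shared by at least 3 of the 10 nearest such pairs, served as anchors. Through these, a symbol was given at a reciprocal overlap of 0.8 (17635 rows) or, for protein-coding genes, of 0.5 with 1 end within 100 bp (1106 rows). These names can miss or misplace a gene. RefSeq promoters were matched for 48 of the 65 genes named by the rule; genes on chromosome 8 were left out of that match.

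Genes were named by a rule. It took ITGA1 and PCDH9. It took the 14 lowest and 14 highest ratios among rows with a symbol, at least 100 counts in the higher line and a level at or above the median, passing over rows that overlap one taken. It took 6 each way among rows of 50 kb or more, up to 2 members each way of each of 14 gene lists, and the 5 highest levels per line. Neighbours, stretches and members of lists printed with a log2 ratio are context outside this rule. The members, lists and rule were chosen with earlier results of these data known.

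The alternatives were edgeR's TMM factors, DESeq2 size factors, quantile normalization, totals over rows that do not overlap, other added values, length limits, a level filter, repeated rows kept, and other thresholds. A total without the row of most counts was added after the data were seen. The ratio and interval code was run on simulated counts with Poisson error only. That check covers the code, not the spread between cultures or PCR copies. Tools were Python 3.11.15, pandas 2.3.3, NumPy 2.4.6, SciPy 1.17.1, Matplotlib 3.10.9, R 4.3.3, edgeR 4.0.16 and DESeq2 1.42.0, the last 2 for scaling factors only.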

Additional observations from a re-analysis of the deposited data

How the results depend on the processing

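With 0.1 CPM added, 605 rows were higher and 933 lower; with 2 CPM added, 73 and 125; on rows of 5 kb or more, 124 and 182; at 1.5-fold, 1239 and 1849; and at 3-fold, 6 and 25, against 199 and 291 in the report. Of the rows past the threshold either way, 40.6% were higher in METS. This share was 45.6% with TMM factors, 45.8% with DESeq2 size factors, 46.8% after quantile normalization and 19.4% at 3-fold. These scalings moved the median log2 ratio of all rows from -0.02 to 0.01, 0.01 and 0. Without the row of most counts in the totals, 180 rows were higher and 310 lower. Of 51 named genes past 2-fold, 49 stayed past it under all 7 other scalings and added values, and none changed direction; the exceptions were OLR1 (log2 ratio 0.85) and LINC00364 (0.98), both with 2 CPM added. No paired analysis was possible because each line has 1 library per mark. No replicate could be left out for the same reason, so the spread between cultures is unknown, and the line, its passage history and the library cannot be told apart. Short rows with few counts are limited by depth, since 118 of 199 higher and 158 of 291 lower rows reached 100 counts in the higher line.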
